A study of Homo sapiens with 3 samples.

Results

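The heat shock factors HSF1 and HSF2 and 8 chaperones, HSPA8, HSP90AA1, HSP90AB1, HSPH1, DNAJB1, HSPB1, HSPD1 and HSPE1, were read on Affymetrix arrays of HT-29, an established line of human colon adenocarcinoma cells. These 10 genes were chosen by name, and HSF1 was taken for the spread of its signal between the arrays, so its values are a description without a test. Of the 10 genes, 8 had a probe set annotated with their symbol alone, among 11963 genes measured in that way. HSF2 had no probe set listed in the annotation used, and the 3 probe sets of HSPA8 also list other genes, so both stay without a value. The arrays are 3 biological replicates of a single group, cultures plated at 50000 cells per cm2 and exposed to interferon-γ (IFN-γ) at 200 U/ml during 24 h. Untreated cells were not analysed here, so each value is a level in treated cells and none is a response to IFN-γ. In such bulk cultures fewer cells that hold an RNA and less of it per cell cannot be told apart.

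HSF1 is the main transcription factor of the heat shock response. In unstressed cells it is held inactive in the cytosol by chaperones, and when unfolded proteins draw those chaperones away it forms trimers and binds heat shock elements, inverted repeats of a short GAA unit, in front of chaperone genes. Cytosolic HSP70 and HSP90 proteins then fold clients with the help of J-domain proteins, nucleotide exchange factors and other co-chaperones, while HSPD1 and HSPE1 form a folding chamber that works mainly inside mitochondria. Cancer cells are known to hold many of these chaperones at high levels without external heat.

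The promoter sequences show where the recognition units of the heat shock factors lie near the genes described below, which is why the matched sites are printed. RefSeq windows of 300 bases, from 250 bases before to 50 bases after an annotated start (position 0), were present for 9 of the 10 genes with 16 starts, and none was present for HSF1. Pairs of units were searched as GAANNTTC and TTCNNGAA, each of which reads the same on both strands, and triples, which contain the pairs, as GAANNTTCNNGAA and TTCNNGAANNTTC. Each line gives 30 bases that lie before a start, on the strand of the gene, with the matched units in capitals (RefSeq, GRCh38.p14).
HSPA8, chr11:123062345-123062374, minus strand, match from -230: gcgagcttGAAAGTTCCAGAAcgctgcggt
HSPA8, chr11:123062170-123062199, minus strand, match from -55: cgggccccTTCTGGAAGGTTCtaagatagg
HSP90AA1, chr14:102087111-102087140, minus strand, match from -88: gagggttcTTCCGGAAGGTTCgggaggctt
HSP90AA1, chr14:102087094-102087123, minus strand, match from -68: gttcgggaggcTTCTGGAAaaagcgccgcg
HSP90AB1, chr6:44247770-44247799, plus strand, match from -165: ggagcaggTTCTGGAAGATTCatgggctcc
HSP90AB1, chr6:44247823-44247852, plus strand, match from -112: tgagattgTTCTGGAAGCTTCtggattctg
DNAJB1, chr19:14518456-14518485, minus strand, match from -77: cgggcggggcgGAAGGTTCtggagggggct
DNAJB1, chr19:14518426-14518455, minus strand, match from -47: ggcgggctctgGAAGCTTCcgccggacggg
HSPD1, chr2:197500061-197500090, minus strand, match from -245: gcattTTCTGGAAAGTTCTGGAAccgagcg
HSPB1, chr7:76302480-76302509, plus strand, match from -182: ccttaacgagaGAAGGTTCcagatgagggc

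Of the 9 genes with a window, 6 held at least 1 pair, whereas 16.2% of all 27305 genes with a window did. A triple was found in 4 of the 9 genes, HSPA8, HSP90AA1, HSP90AB1 and HSPD1, against 0.608% of all genes. The counts of 6 and 4 genes were the same in the 250 bases before the start alone. HSF2, HSPH1 and HSPE1 had no pair in these windows, which says only that these letters are not there. The matches are a description of the sequence, and no binding was measured. A CCAAT sequence on either strand was found in 4 of the 9 genes and in 39.7% of all genes, and TATAAA on the gene strand in 1 of the 9, HSF2, and in 8.99% of all genes.

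**Figure D1:**
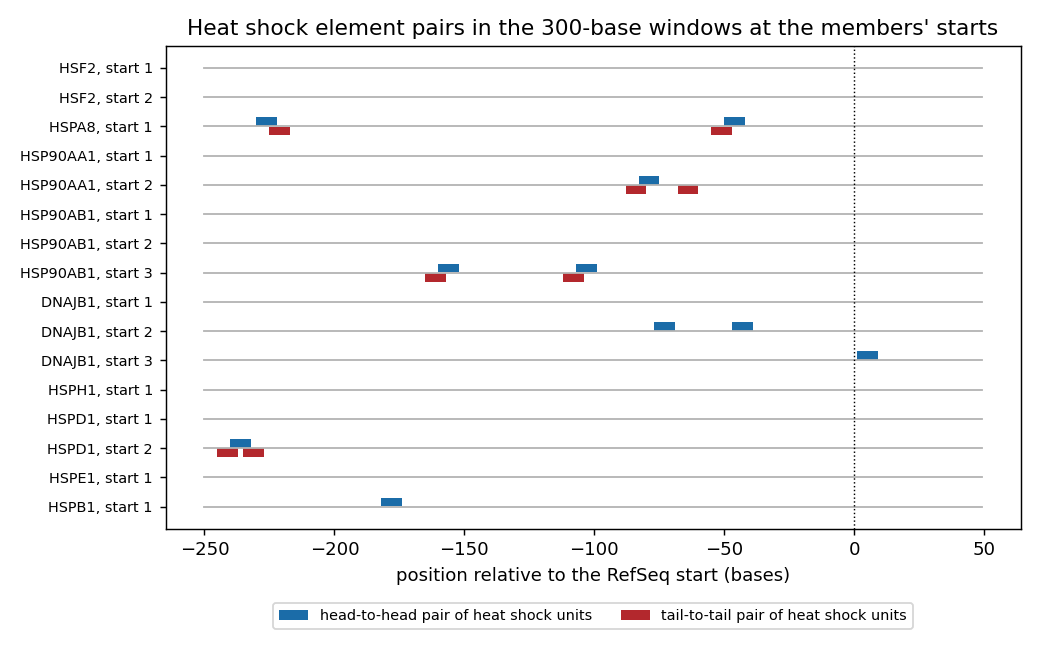
Position of heat shock element pairs, in bases relative to the RefSeq start at 0, in the 16 windows of 9 genes; blue blocks are head-to-head pairs (GAANNTTC) and red blocks are tail-to-tail pairs (TTCNNGAA). Matches lie in 7 of the 16 windows, and HSF2, HSPH1 and HSPE1 show none.

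HSPD1 and HSPE1 lie head to head on chromosome 2, and 104 bases separate the outer start of HSPD1 from the start of HSPE1. That stretch is printed because both genes are transcribed away from it, HSPE1 along the plus strand and HSPD1 along the minus strand.
HSPD1 to HSPE1, chr2:197500275-197500378, plus strand: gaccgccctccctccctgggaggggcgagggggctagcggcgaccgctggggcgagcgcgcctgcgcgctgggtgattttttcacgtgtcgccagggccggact
The stretch is 74.0% G and C, compared with 57.5% over all windows, and it held 0 pairs of heat shock units. The triple of HSPD1 listed above lies before its second start, which RefSeq places 434 bases downstream of the first.

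The names of the probe sets were checked before any value was read, since the deposited names are displaced against the values. Where a gene has several probe sets, the mean log2 signals of its first 2 were set against each other over 4310 genes, a correlation across genes and not across independent replicates. The deposited order gave r = 0.19 and rho = 0.19, and the order inferred from the data gave r = 0.60 and rho = 0.60. Most names move by 487 rows, and a stretch of 2307 names moves by 488. That stretch holds HSF1 probe set 202344_at, both probe sets of DNAJB1, both of HSPD1 and the one of HSPB1. Its probe sets were compared with those of the same genes outside it, over 1051 pairs, and r was 0.43 at 488 rows, 0.13 at 487 and 0.19 at 489. HSP90AB1 probe set 200064_at belongs to a block of 100 names placed near the top of the file. For this block r was 0.37 over 59 pairs in the inferred order. It was -0.09 with the names of the block unmoved and their partner probe sets kept in the inferred order. For the 6 members with several probe sets, the mean log2 signals of a gene's probe sets spanned a median of 0.55 log2 units in the inferred order and 3.88 as deposited.

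The arrays had median signals of 137, 144 and 141, and their number limits the precision of every value. Genes of other tissues, 64 of them with a value, served as background, and the limit of an array was their 95th percentile there. This limit stood at 242 in replicate 1, 231 in replicate 2 and 178 in replicate 3. A gene was called detected where its log2 signal lay above this limit in limma's one-sided test with a Benjamini-Hochberg adjusted p under 0.05. Of 10 epithelial markers 9 were detected, including KRT20 at 4808 ± 414 (SD, n = 3), while the intestinal cadherin CDH17 was not, at 14.3 ± 3.35 (SD, n = 3). Of markers of other cells, 0 of 5 for T and NK cells, 0 of 2 for B cells, 0 of 4 for endothelium, 0 of 5 for fibroblasts and 0 of 3 for erythroid and muscle cells were detected in limma. Of 5 myeloid markers 1 was, the lysozyme gene LYZ at 6777, 6612 and 14391, and at an unadjusted p under 0.05 no other marker of these cells was added.

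The 7 chaperones that could be tested were all detected, with log2 signals between 2.23 and 6.51 units over the limit. Their adjusted p in limma ran from 1.8e-10 to 2.6e-08, and the median over the 7 genes was 5.31 units, against -0.16 over all genes measured. The background for this count is 40.4% of 11963 genes detected, and 42.9% of genes passed the limit on every one of the 3 arrays. Under other settings that share was 2.24% with names as deposited, 41% with uniformly displaced names, 39.5% with the median over probe sets and with quantile normalization, 32.9% without suffixed probe sets, 43.9% and 30% with the limit at the 90th and 99th percentile and 39.8% with 50 added to each signal. It was 76.7% where genes over the limit on no array were left out, 38.1% without a variance trend, and 38.1%, 39% and 39.6% without replicate 1, 2 and 3. The genes were chosen with earlier results of these data known, so the count describes them. Because signals of different probe sets depend on the probes, the members are not ranked by level. These p-values do not include the error of the limit itself.

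**Figure D2:**
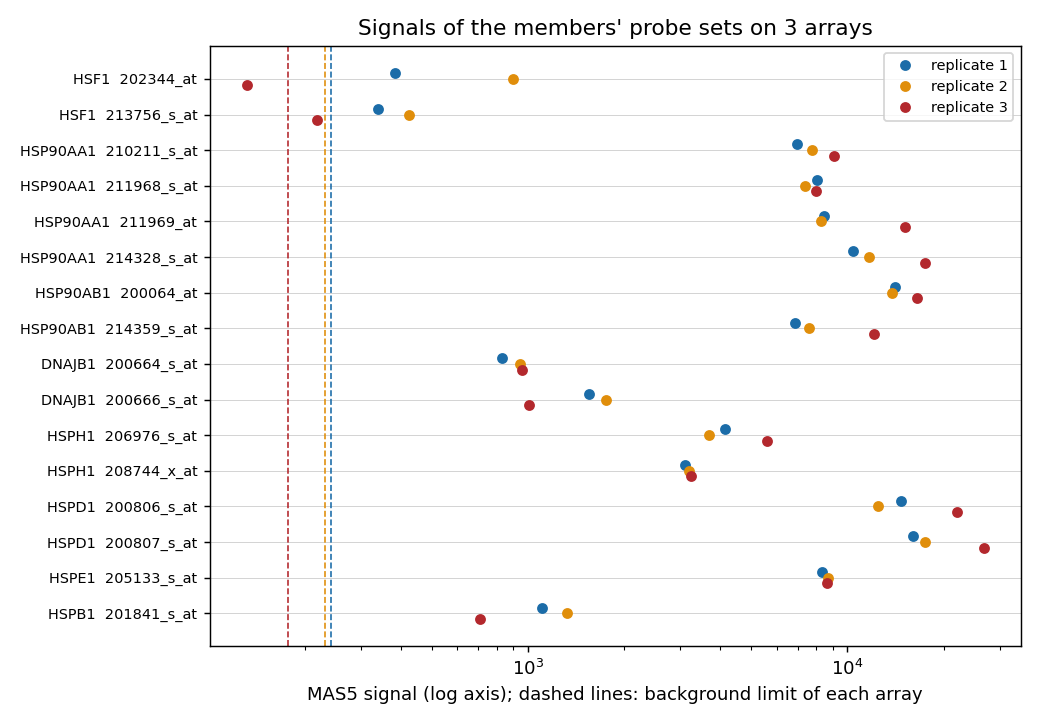
MAS5 signal on a log axis for each of the 16 single-symbol probe sets of the 8 measured members, with 1 point per array (blue, orange and red for replicates 1, 2 and 3) and the background limit of each array as a dashed line. Only HSF1 has a point left of its own array's limit, in replicate 3 at 132 on probe set 202344_at.

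HSF1 was read by 2 probe sets that put the arrays in the same order. Probe set 202344_at had signals of 383, 898 and 132 in replicates 1, 2 and 3, and its SD of 1.39 log2 units is the value for which the gene was chosen. Replicate 2 was the highest and replicate 3 the lowest, where the signal lay under that array's limit of 178. The second probe set, 213756_s_at, had signals of 339, 424 and 219, all over the limits, with an SD of 0.48. With replicate 3 taken at its limit, it lay at least 1.72 log2 units below the mean of replicates 1 and 2 on the first probe set, and it lay 0.79 below on the second. The SD of 1.39 includes the value under the limit. With the name moved by 487 rows in place of 488, the first probe set would read 3657, 5385 and 3953, so the size of the HSF1 spread rests on the placement of a single row, while 213756_s_at does not depend on that stretch.

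Genes with the array pattern nearest to HSF1 were sought among the detected genes by the Euclidean distance between log2 deviations from each gene's own mean over the 3 arrays. The 5 nearest were AGRN, H1-10, DGKZ, SLC52A2 and CIZ1, at distances from 0.10 to 0.21. AGRN, which encodes the basement membrane proteoglycan agrin, had signals of 1857, 4652 and 700.2 in replicates 1, 2 and 3. The linker histone gene H1-10 had 778, 2136 and 295. All 5 genes were highest in replicate 2 and lowest in replicate 3, which follows from the search for the HSF1 pattern. CIZ1 fell under the limit in replicate 3 with 132. The likeness is over 3 arrays of a single group.

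The cytosolic HSP90 proteins, which mature kinases and steroid receptors, are encoded by the more inducible HSP90AA1 and the more constitutive HSP90AB1. HSP90AA1 probe set 214328_s_at had signals of 10379, 11708 and 17459 in replicates 1, 2 and 3, or 13182 ± 3763 (SD, n = 3), and lay 5.90 log2 units over the limit. Its other 3 probe sets were also far over the limits on every array. On 211969_at replicate 3 read 15097 against 8447 and 8258, whereas on 211968_s_at the 3 arrays read 8057, 7356 and 7982. The difference of replicate 3 from the mean of the other two therefore ran from 0.05 to 0.85 log2 units among probe sets of this single gene. HSP90AB1 had 14087, 13828 and 16490 on 200064_at, or 14802 ± 1468 (SD, n = 3), with an SD of 0.14 log2 units. Its second probe set, 214359_s_at, read 6834, 7564 and 12079. By the distance used above, HSP90AB1 ranked 727 of 4836 detected genes in likeness to HSP90AA1, and HSP90AA1 ranked 1962 in likeness to HSP90AB1. These ranks rest on 214328_s_at and 200064_at alone. On 214359_s_at the replicate 3 difference of HSP90AB1 was 0.75 log2 units, nearer to the 0.66 of 214328_s_at than the 0.24 of 200064_at. The ranks thus depend on the probe set taken, and none is given for 214359_s_at.

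DNAJB1 and HSPH1 encode partners of HSP70, a J-domain protein that stimulates its ATPase and a relative of HSP70 that releases its nucleotide. DNAJB1 probe set 200666_s_at had signals of 1555, 1752 and 1008 in replicates 1, 2 and 3, with replicate 3 lowest. Its other probe set, 200664_s_at, read 827, 944 and 961, with replicate 3 highest by a small margin. The 2 probe sets of DNAJB1 thus differed in the sign of the array 3 difference, at -0.71 and 0.12 log2 units. Both lie in the stretch moved by 488 rows, and at 487 rows 200666_s_at would read 3.75, 7.03 and 8.29 and 200664_s_at 7726, 8318 and 7536. DNAJB1 would then lie 5.28 log2 units over the limit in place of 2.70, with an array 3 difference of -0.09. HSPH1 probe set 206976_s_at read 4131, 3697 and 5587, and 208744_x_at, whose suffix marks possible cross-hybridisation, read 3111, 3192 and 3229. The SD of HSPH1 was 0.31 log2 units on the first and 0.03 on the second.

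HSPD1, the barrel of the mitochondrial chaperonin, and HSPE1, its lid, start on either side of the sequence printed above. HSPD1 had signals of 16061, 17514 and 26704 on 200807_s_at and of 14743, 12442 and 21986 on 200806_s_at. Replicate 3 was the highest on both, 1.59-fold and 1.62-fold over the geometric mean of replicates 1 and 2. Both lie in the stretch moved by 488 rows. At 487 rows 200807_s_at would read 14743, 12442 and 21986, and 200806_s_at 885, 1175 and 1186. HSPD1 would then lie 6.29 log2 units over the limit in place of 6.51, with an array 3 difference of 0.70. HSPE1 had 8320, 8693 and 8645, or 8553 ± 203 (SD, n = 3), and its SD of 0.03 log2 units lay at percentile 1.36 of detected genes. That SD was 0.11 with quantile normalization and 0.0057 without replicate 1. In likeness to HSPD1, HSPE1 ranked 1557 of 4836 detected genes, while HSPD1 ranked 3217 in likeness to HSPE1. The distance was 0.53, against a median over detected genes of 0.68 from HSPD1 and 0.41 from HSPE1. HSPE1 has a single probe set here, and the difference between the genes was not tested, since the arrays are replicates of a single group.

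HSPB1, a small heat shock protein that holds unfolded proteins without using ATP, had signals of 1104, 1327 and 708 in replicates 1, 2 and 3. The mean was 1046 ± 314 (SD, n = 3), 2.23 log2 units over the limit. Replicate 3 was the lowest, at 0.585 of the geometric mean of the others. The gene was also read by a single probe set, which lies in the stretch moved by 488 rows. At 487 rows it would read 2717, 1220 and 1244, with replicate 2 lowest. HSPB1 would then lie 2.98 log2 units over the limit, with an array 3 difference of -0.55.

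Across the 7 tested members, which leave out HSF1, replicate 3 was the highest array for 4 genes and the lowest for 2. Their median SD was 0.39 log2 units, beside 0.29 over detected genes. With the median over probe sets the median SD of the 7 was 0.29. The background is 34.2% of detected genes highest in replicate 3 and 44.9% lowest there. HSPD1, HSP90AA1, HSP90AB1 and HSPH1 were highest in replicate 3, and DNAJB1 and HSPB1 were lowest. For HSPB1 this holds with the name moved by 488 rows and not by 487. For DNAJB1 it holds on 200666_s_at, whereas on 200664_s_at replicate 3 was the highest. For HSP90AA1 it does not hold on 211968_s_at, where replicate 1 was the highest. The difference of replicate 3 also varied with signal level over all detected genes. Among the 170 detected genes brighter than 8000 the median difference of replicate 3 was 0.39 log2 units (quartiles 0.09 and 0.56) and 74.7% were highest in replicate 3, whereas among the 1209 dimmest detected genes, with signals from 308 to 524, the median was -0.15. HSPD1 at 0.67 and HSP90AA1 at 0.66 lay above the upper quartile of the bright genes. HSP90AB1 at 0.24 and HSPE1 at 0.02 lay below the median of the bright genes. These places depend on the probe set taken. With the median over probe sets HSP90AA1 was at 0.53, below that quartile, and HSP90AB1 at 0.49, above that median. HSPD1 was then at 0.68 and HSPE1 stayed at 0.02. DNAJB1 went from -0.71 to -0.30 and HSPH1 from 0.52 to 0.28, while HSPB1 stayed at -0.77. The part of signal level in these differences was not tested. With quantile normalization the difference was 0.20 for HSPD1 and 0.28 for HSP90AA1, while HSP90AB1 and HSPE1 turned to -0.13 and -0.18, and the median over the 7 tested members went from 0.24 to -0.13, with their median SD at 0.16. HSPH1 was at 0.39, DNAJB1 at -0.66 and HSPB1 at -0.67. Without replicate 3 the median SD of the 7 was 0.11, where each SD rests on 2 arrays. It was 0.42 without replicate 1 and 0.44 without replicate 2. The SD over detected genes is given for the main setting only.

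**Figure D3:**
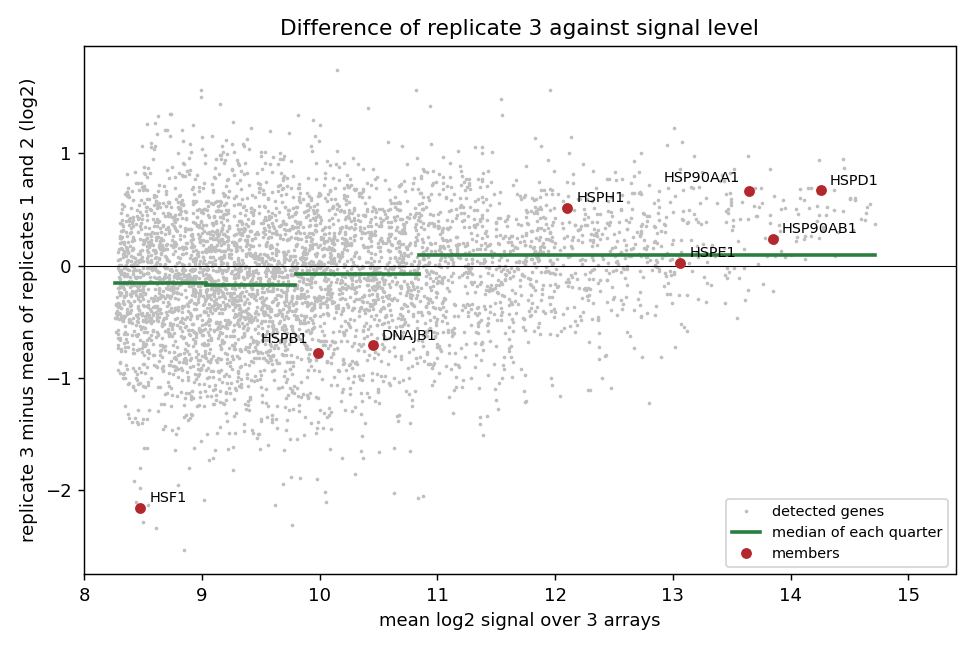
Log2 signal of replicate 3 minus the mean of replicates 1 and 2 against the mean log2 signal over 3 arrays, for 4837 detected genes (grey), the 8 measured members (red) and the median of each of 4 equal bins of detected genes by signal (green lines). HSPD1, HSP90AA1, HSP90AB1 and HSPH1 lie above the green line at their signal, and DNAJB1, HSPB1, HSPE1 and HSF1, whose replicate 3 signal is under the limit, lie below it.

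The other listed genes were chaperones, co-chaperones and regulators of the heat shock factors, taken without regard to how they moved. Of 74 listed genes 67 were measured, and 48 of the 67 were detected, against the background of 40.4%. The median log2 signal of the 67 was 2.48 units over the limit. Replicate 3 was the highest array for 20 of the 48 and the lowest for 20, where 34.2% of all detected genes were highest and 44.9% lowest there.

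In the HSP70 and HSP110 families, 3 of 7 and 2 of 2 measured genes were detected. HSPA14, a ribosome-associated HSP70, read 1454, 1432 and 1418, the least variable of the 3 detected genes. HSPA13, a microsomal member, read 476, 208 and 727, the most variable of those 3, and its replicate 2 signal lay under that array's limit of 231. The heat-inducible HSPA6 was not detected, with signals of 86.5, 188 and 103, and neither were HSPA2 nor HSPA12A at means of 80.5 and 38.2. HSPA1A and HSPA1B, the main inducible HSP70 genes, share probe sets and had no value of their own. HSPA4, a relative of HSPH1, read 1636, 1367 and 2227 in replicates 1, 2 and 3. HSPA4L, another relative, read 834, 652 and 824.

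J-domain genes were detected for 10 of 14 measured members. DNAJC9, a histone co-chaperone, read 2058, 2080 and 2061, and DNAJC13, an endosomal protein, read 398, 293 and 616. DNAJB4, a close relative of DNAJB1, lay near the limit with 248, 169 and 262 and was not detected, nor were DNAJB5 and DNAJC6 at means of 120 and 33.8. Nucleotide exchange factors were detected for 6 of 7 genes. BAG2 read 1724, 1969 and 1723, and BAG6, which captures misplaced membrane proteins, read 1652, 3039 and 856. Of the 6 genes, 5 were lowest in replicate 3, as were 44.9% of detected genes, and BAG2 was lowest there, with 1722.8 against 1723.8 in replicate 1. BAG4 was not detected at 120 ± 3.82 (SD, n = 3).

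Co-chaperones of HSP90 were detected for 11 of 12 measured genes. STIP1, which passes clients from HSP70 to HSP90, read 4211, 4521 and 4848, and the immunophilin FKBP4 read 2989, 3183 and 1779. Its relative FKBP5 stayed at the limit with 236, 236 and 212 and was not detected. All 7 measured subunits of TRiC, the cytosolic chaperonin that folds actin and tubulin, were detected, and 5 of them were highest in replicate 3. Their mean signals ran from 4700 to 10014, and among the 1210 brightest detected genes 49.2% were highest in replicate 3. CCT7 read 4583, 4861 and 4926, and CCT6A read 3776, 3924 and 6402. All 5 measured subunits of prefoldin, which delivers clients to TRiC, were detected as well, with PFDN1 at 555, 729 and 590 and PFDN4 at 1842, 1442 and 2495.

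Small heat shock proteins other than HSPB1 were at background. None of 7 measured genes was detected in limma, 0 had an unadjusted p under 0.05, and 0 were above the limit on all 3 arrays. HSPB6 read 116, 169 and 218, CRYAB, a lens and muscle crystallin, read 28.8, 242 and 121, and CRYAA read 104, 133 and 37.5. HSPB6 and CRYAB each passed the limit on 1 array. HSPB1 was thus the single detected gene of its family among those measured, although no test of the family was made.

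Regulators of the heat shock factors were detected for 4 of 6 measured genes. HSBP1, which binds the trimerisation region of HSF1, read 4341, 4313 and 4571. VCP, a segregase that extracts ubiquitinated proteins, read 3395, 3711 and 2424, with replicate 3 lowest. The acetyltransferase EP300 and the tissue-restricted factor HSF4 were not detected, at 146 ± 1.54 and 24.4 ± 8.76 (SD, n = 3 each).

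**Figure D4:**
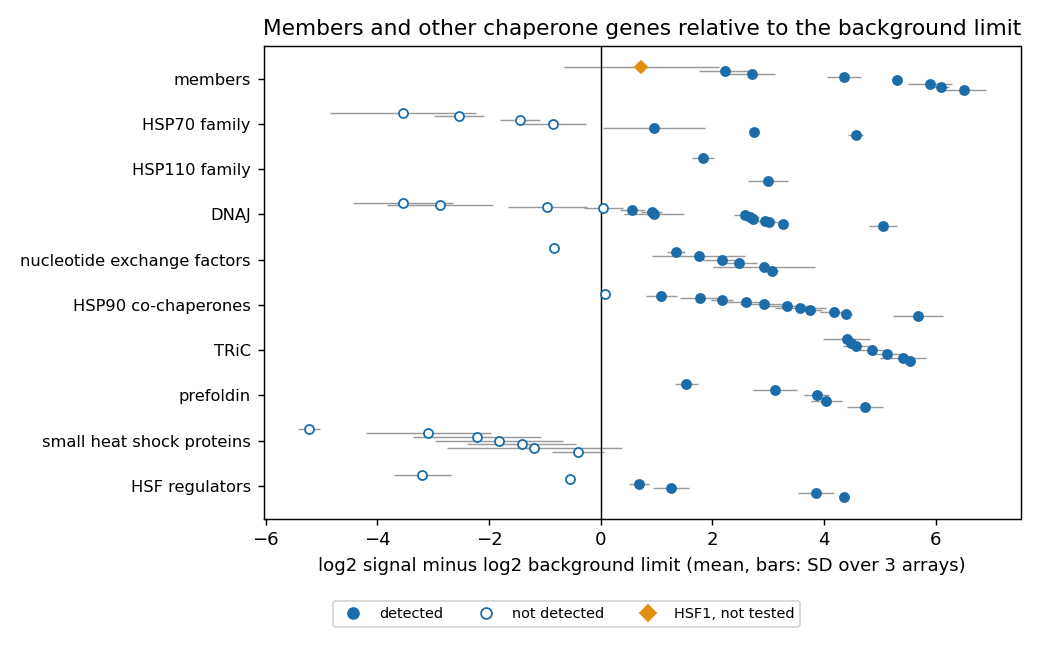
Mean log2 signal minus log2 background limit, with bars for the SD over 3 arrays, for the 8 measured members and 67 other listed genes. These are chaperones, co-chaperones and regulators of the heat shock factors, in 9 lists. Filled points were detected, open points were not, and the orange diamond is HSF1, which was not tested. The 7 tested members, TRiC and prefoldin have all means right of the limit, and the small heat shock proteins have all means left of it.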

How the data were processed

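RNA of 3 treated HT-29 cultures was hybridised to Affymetrix arrays, and the submitters' processing notes name MAS5 and Affymetrix Expression Console 1.1. Each deposited value is a linear signal intensity, and the arrays share a trimmed mean. The scaling target is not given in the sources used here. Values were present for 22277 of 22283 probe sets. In the order used, the first 15 values were unnamed, followed by 100 probe sets numbered from 200000, 493 with lower numbers, 21622 others in file order, and 47 unnamed values. This order was inferred from the data. Names came from the platform annotation, and 19065 probe sets had 1 symbol, 1043 several and 2107 none listed.

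No pseudocount was added before log2 was taken. Each gene was represented by the brightest on average of the probe sets that list its symbol alone. Log2 signal minus the limit was fitted with an intercept and a variance trend in limma 3.58.1 (R 4.3.3), over all 11963 genes. The fit was tested on simulated data. Members, lists and tests were chosen with earlier results of these data known. Genes named from a list were its least and most variable detected gene and up to 3 not detected. Those nearest to HSF1 were the 5 nearest detected genes. Alternatives covered names, probe sets, limit, offset, normalization, filter, variance trend and each replicate left out.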

Additional observations from a re-analysis of the deposited data

How the results depend on the processing

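Under the names as deposited, 0 of the 7 tested members were detected by limma, and 0 at an unadjusted p under 0.05. The limit itself then stood at 4313, 5597 and 5726 in replicates 1, 2 and 3, against 242, 231 and 178 in the inferred order. Counts and differences under these names therefore depend on the higher limit as well as on the genes' signals. Of the 67 other listed genes 2 were detected, where 2.24% of all genes were. The members then lay under the limit by log2 differences of -4.55 for HSP90AA1, -2.96 for HSP90AB1, -0.85 for HSPH1, -3.45 for DNAJB1, -4.06 for HSPB1, -3.06 for HSPD1 and -3.46 for HSPE1. The agreement of probe sets was 3.88 log2 units and r was 0.19. Names displaced uniformly by 487 rows, an alternative added after seeing the data for this correlation, gave r = 0.50. Without probe sets with the _x_at or _s_at suffix, 2 of 2 remaining members and 24 of 39 other genes were detected, since fewer genes could be measured. With each replicate left out in turn the counts were 7 to 7 members and 46 to 48 other genes, and the median SD of the 8 measured members, HSF1 included, was 0.12 to 0.45 log2 units. Under every other alternative run the 7 tested members were detected, and between 42 and 49 other genes were. No paired analysis was possible because all 3 arrays form a single group. The comparison of protein sequences was not run, since no protein table was used here.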
